A study of Mus musculus with 51 samples.

Results

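The genes followed here are 9 mouse chemokines: Cxcl1, Cxcl5, Cxcl10, Cxcl12, Ccl2, Ccl5, Ccl7, Ppbp and Cx3cl1. They were taken by name, and every probe set that the platform annotation gives to a member and to no other gene was used. This gave 16 of the 45101 probe sets on the array and 9 of its 18193 named genes. Cx3cl1 had 4 probe sets, Cxcl1 and Cxcl12 had 3 each, and every other member had 1. Their levels were read in 17 groups of 3 arrays, and compared between each knock out or construct and its control, and among the primary wild-type (WT) groups.

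Chemokines are small secreted proteins that steer migrating cells along a concentration gradient by binding G-protein-coupled receptors. Fibroblasts make inducible ones when Toll-like, cytokine or RNA-sensing receptors switch on NF-kB and interferon regulatory factors, and the attracted cells depend on the member: neutrophils follow Cxcl1, Cxcl5 and processed Ppbp, monocytes follow Ccl2 and Ccl7, and T cells follow Cxcl10 and Ccl5. Cxcl12 is mainly a constitutive stromal chemokine that retains Cxcr4-bearing cells, and Cx3cl1 is anchored in the membrane until proteases shed it.

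The study asked how HMGN proteins, nucleosome-binding architectural proteins of chromatin, affect transcription. RNA from 51 samples was hybridised to Affymetrix whole-genome mouse arrays. Primary mouse embryonic fibroblasts (MEFs) of strain C57BL/6 came from HMGN1, HMGN3 and HMGN5 knock outs, each with a WT group of its own. SV40-transformed MEFs, a commercial line, carried an empty vector or retroviral HMGN1, HMGN2, HMGN3a, HMGN5, HMGN5SE, HMGN1_N2swap or HMGN1_N3swap. MIN6 cells, a mouse insulinoma line used as a beta cell model, carried an empty vector, HMGN1 or HMGN3a. The cells grew in DMEM with serum. Transduced cells were selected with puromycin and collected as uncloned pools, so every construct group and its empty vector control share infection and selection. The labels do not explain HMGN5SE or the swap names, do not give the species of the constructs, and leave unsaid if replicate arrays came from separate cultures. The p-values therefore measure only the spread between these arrays, which may be technical, and their small number limits the precision.

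Array medians of the deposited intensities ran from 5.47 to 5.93 for primary MEFs, 18.7 to 19.6 for the SV40 line and 55.5 to 57.6 for MIN6, so levels are compared only within a cell type. All values below are log2 intensities or differences between them, with standard errors (SE) from limma and n = 3 arrays a group. A gene was tested where its probe set reached the 40th percentile of group means, a floor at 1.99 for primary MEFs, 3.63 for the SV40 line and 5.14 for MIN6. The targeted gene was lower in the HMGN1 knock out (Hmgn1, -0.67 ± 0.05) and the HMGN3 knock out (Hmgn3, -1.30 ± 0.08). In the arrays labelled HMGN5 knock out, Hmgn5 went against the label (0.72 ± 0.12, limma adjusted p = 0.031), so no direction of an HMGN5 loss is drawn from them. The Hmgn1 probe set did not register the HMGN1 construct in SV40 MEFs (-0.01 ± 0.07), and the Hmgn5 probe set was lower in the HMGN5 pool (-0.93 ± 0.08). Hmgn1 was not called in HMGN1_N2swap (0.13 ± 0.07) or HMGN1_N3swap (0.12 ± 0.07), nor Hmgn5 in HMGN5SE (-0.05 ± 0.08). No probe set was annotated to Hmgn2 alone, so the HMGN2 construct could not be checked. Neither Hmgn3 in the SV40 HMGN3a pool (-0.23 ± 0.08) nor Hmgn1 in the MIN6 HMGN1 pool (-0.03 ± 0.05) was called, while Hmgn3 rose with HMGN3a in MIN6 cells (0.23 ± 0.05, limma adjusted p = 0.0090). Of 10 fibroblast markers, 10 were above the floor in every primary group and 8 in the SV40 empty vector pool, with Pdgfra and Lum below it. In MIN6 cells 9 of 9 beta cell markers and 2 of 10 fibroblast markers were above it. In the primary cultures 17 of 18 macrophage and leukocyte markers were above the floor, with Itgam below. Y-linked RNA was near background in the 3 HMGN1 WT arrays (1.04 to 1.17) and high in all HMGN3 and HMGN5 WT arrays (4.97 to 5.25). It read 4.96, 1.09 and 4.23 in the HMGN1 knock out and 1.21, 5.24 and 4.08 in the arrays labelled HMGN5 knock out. The replicates of these groups were thus not repeat arrays of 1 culture, and both pairs were unbalanced for Y-linked RNA. In the HMGN3 knock out it was high, at 4.88 to 4.96.

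The members changed most in the SV40 pools, and not in one direction. In the HMGN2 pool 5 of 7 tested members rose and none fell, in a comparison that called 44.4% of all genes. Their median difference was 1.07, against -0.06 over all genes. In the HMGN5 pool 3 rose and 3 fell, with 41.5% of all genes called. In the HMGN1 pool 2 rose and 3 fell, with 29.4% called. In the HMGN1_N2swap pool 3 rose and 4 fell (37.1% of all genes called), and in the HMGN1_N3swap pool 3 rose and 4 fell (37.4% called). No member was called in the HMGN3a pool (0.0297% of all genes called) or the HMGN5SE pool (0.0149% called) by limma, and 0 of 7 passed an unadjusted p of 0.05 in either. Of 13461 genes, 1468 passed it in the HMGN3a pool and 704 in the HMGN5SE pool. The 7 comparisons share the 3 empty vector arrays. In these comparisons the calls are to be read against shares of 29.4% to 44.4% of all genes.

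**Figure D1:**
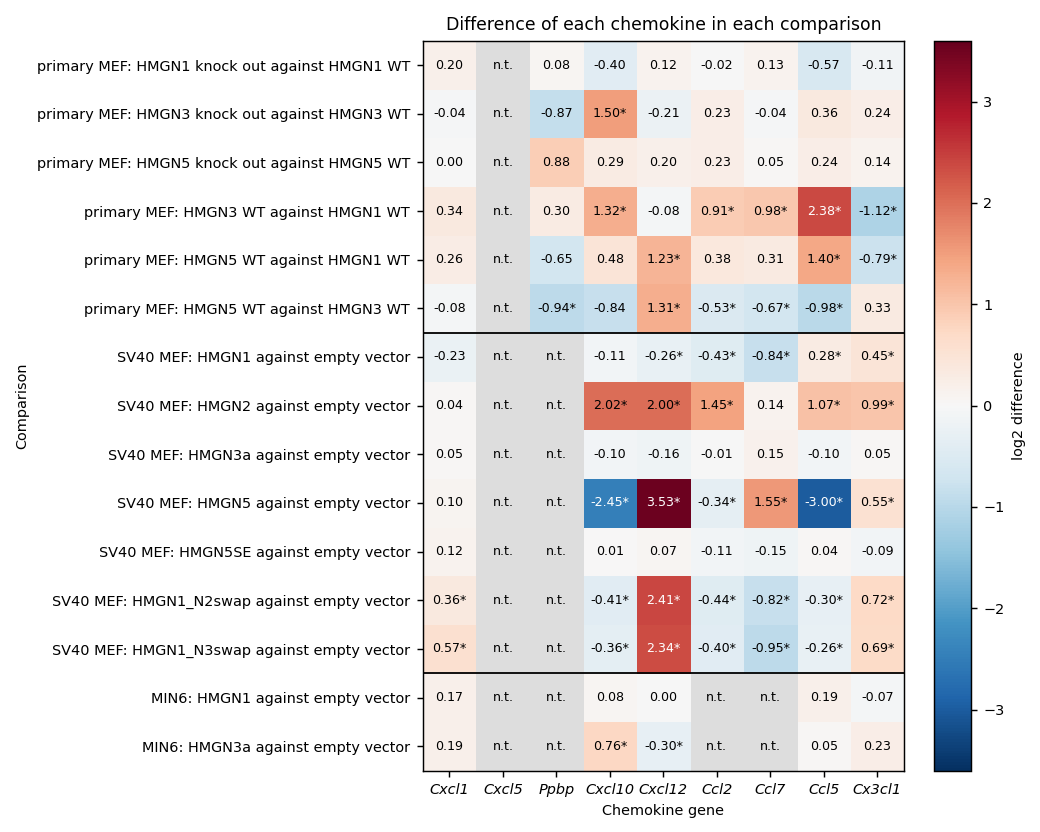
Log2 difference of each member in each of the 15 comparisons, as colour and number, with an asterisk where the limma adjusted p was below 0.05 and n.t. (grey) where the gene was below the floor in that cell type. Cxcl12 at 3.53 and Ccl5 at -3.00 in the HMGN5 pool are the extremes, and the HMGN3a and HMGN5SE pools hold no asterisk; the Ppbp value of HMGN5 WT against HMGN3 WT has the first group below the floor.

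In primary MEFs the knock outs changed few members, while the WT groups differed from each other. The HMGN3 knock out called 1 of 8 tested members, Cxcl10, in a comparison with 0.585% of all genes called. At an unadjusted limma p below 0.05 it had 4 of 8 members and 1159 of 13669 genes. The HMGN1 knock out called none by limma (0.439% of all genes called), and neither did the arrays labelled HMGN5 knock out (0.0732% called). Unadjusted, the former had 1 member, Ccl5, and 2121 of 13669 genes at a limma p below 0.05. The latter had 1 member, Ppbp, and 764 genes. HMGN3 WT differed from HMGN1 WT in 5 of 8 members, 4 higher and 1 lower, with 31.5% of all genes called. HMGN5 WT differed from HMGN1 WT in 3 members, 2 higher and 1 lower, with 11.7% called. HMGN5 WT differed from HMGN3 WT in 5 members, 1 higher and 4 lower, with 17.2% called, but Ccl2 and Ccl7 lost the call when any 1 of the 6 arrays other than HMGN5 WT replicate 2 was left out (limma adjusted p from 0.063 to 0.106). The WT contrasts share groups with one another and with the knock out comparisons. Pairs of knock out effects were tested as differences of differences. Between HMGN1 and HMGN3 no member differed (0.505% of all genes called), nor did any between HMGN1 and HMGN5 (0.161% called). At an unadjusted limma p below 0.05 the former had 4 of 8 members and 1669 of 13669 genes. The latter had 2 of 8 members and 1591 genes. Between HMGN3 and HMGN5, 1 member differed, Ppbp (0.424% called).

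In MIN6 cells 5 members passed the floor, Ccl5 only through the HMGN1 group. Its means were 5.18 there, 4.99 with empty vector and 5.04 with HMGN3a. HMGN1 called none of the 5 by limma (1.16% of all genes called). The 1 member at an unadjusted limma p below 0.05 was Ccl5, beside 2246 of 13169 genes. Ccl5 passed the floor only where it was high, so no difference is drawn from that p. HMGN3a called 2 of 5, Cxcl10 higher and Cxcl12 lower, the latter at a mean near the floor, with 34.1% of all genes called. Ccl2 and Ccl7 lay below the floor in every MIN6 group, as did Cxcl5 and Ppbp. Cxcl1 passed by 1441855_x_at, whose ending marks probes that can also match other transcripts, and by 1457644_s_at. The Cxcl1 probe set 1419209_at, without that ending, lay below the floor in every MIN6 group. The Cxcl1 level in MIN6 cells is therefore uncertain.

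Among the neutrophil attractants, Cxcl5 was below the floor in all 17 groups, with group means of 0.94 to 1.20 for primary MEFs, 1.61 to 1.83 for the SV40 line and 2.63 to 2.70 for MIN6, and no difference is given for it. Cxcl1, which binds Cxcr2 on neutrophils, was measured by 3 probe sets. The brightest, 1441855_x_at, stood for the gene in the fit, but the ending _x_at marks probes that can also match other transcripts. The probe set 1419209_at carries no such mark and moved more. In the SV40 empty vector pool it read 5.68, 5.54 and 5.67, in HMGN1_N2swap 6.92, 6.88 and 6.94, and in HMGN1_N3swap 6.75, 6.43 and 6.74. Both swap pools thus lay above all control arrays. The HMGN1 pool read 4.78, 5.02 and 4.97, below all of them.

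Fitted over every probe set, 1419209_at differed from the empty vector by 1.28 ± 0.09 in HMGN1_N2swap (limma adjusted p = 1.5e-09), by 1.01 ± 0.09 in HMGN1_N3swap (4.9e-08), by -0.71 ± 0.09 in HMGN1 (9.2e-06) and by 0.34 ± 0.09 in HMGN5 (0.0054). The _x_at probe set gave smaller rises of Cxcl1 in the swaps, 0.36 ± 0.09 and 0.57 ± 0.09. With the gap between 3-prime and 5-prime Actb probe sets as a covariate, the HMGN1_N2swap value was 0.13 and no longer called (limma adjusted p = 0.41). In HMGN1 its -0.23 ± 0.09 missed the threshold (limma adjusted p = 0.0504), which it passed without empty vector replicate 1 (-0.30, 0.031) and under quantile normalization (-0.32, 0.011). The remaining probe set, 1457644_s_at, gave 1.34 ± 0.12 and 1.23 ± 0.12 in the swaps. In HMGN2 the 3 disagreed: 1457644_s_at was called higher (0.46 ± 0.12), while the others gave 0.04 and -0.12 without a call. In primary MEFs no comparison called Cxcl1 by 1441855_x_at, save HMGN3 WT against HMGN1 WT when HMGN3 WT replicate 1 was left out (0.48, limma adjusted p = 0.011). The probe set 1419209_at was higher in HMGN3 WT (0.76) and in HMGN5 WT (0.72) than in HMGN1 WT, each with a limma adjusted p below 0.05.

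**Figure D2:**
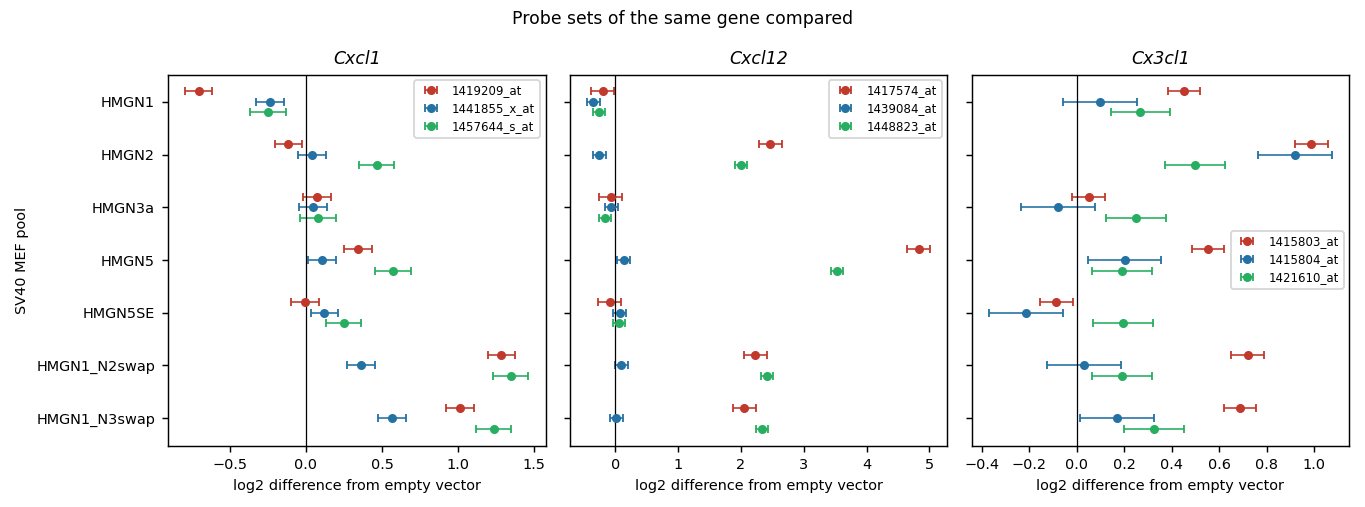
Log2 difference from empty vector (± SE, n = 3 arrays a group) in the 7 SV40 MEF pools for every probe set of Cxcl1, Cxcl12 and Cx3cl1 that passed the floor, 1 colour per probe set. The Cxcl12 probe sets 1448823_at and 1417574_at move together, up to 3.53 and 4.83 in HMGN5, while 1439084_at stays at 0.13 there.

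Ppbp, the platelet basic protein that proteases turn into a Cxcr2 ligand, was close to the floor of 1.99 in primary MEFs and below the floor in both lines. HMGN3 WT read 3.03, 2.99 and 2.72, and the HMGN3 knock out read 2.56, 1.61 and 1.97. HMGN5 WT read 2.12, 1.80 and 2.00, and the arrays labelled HMGN5 knock out read 2.36, 3.28 and 2.91. The groups of neither pair overlapped, yet neither difference passed limma's test (-0.87 ± 0.22, adjusted p = 0.13, and at least 0.85, fitted 0.88 ± 0.22, adjusted p = 0.28). The former passed without HMGN3 knock out replicate 1 (-1.12, limma adjusted p = 0.027). The difference between these effects did pass, at -1.75 ± 0.32 (limma adjusted p = 0.026), with HMGN5 WT below the floor at a mean of 1.97. That call was lost without HMGN3 knock out replicate 2 or 3, HMGN3 WT replicate 1 or 2, labelled HMGN5 knock out replicate 3, or HMGN5 WT replicate 2 or 3. Without any 1 of these 7 arrays the difference lay between -1.76 and -1.53. HMGN5 WT was also below HMGN3 WT by at least 0.92 (fitted -0.94 ± 0.22, limma adjusted p = 0.0083). Of 8 platelet and megakaryocyte markers on the array 6 were above the floor in every primary group, with Gp6 and Nfe2 below it, and their log2 summed intensity was 7.47 to 7.65 in the HMGN3 knock out and 7.58 to 7.62 in HMGN3 WT. Of the same 8 markers, 5 were also above the floor in every SV40 group and 4 in every MIN6 group. Passing the floor therefore does not show that platelet cells were present. Pf4, another platelet chemokine and the chromosomal neighbour of Ppbp, read 5.35, 4.51 and 4.96 in the HMGN3 knock out and 5.15, 5.31 and 5.32 in HMGN3 WT, with overlapping ranges.

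The RefSeq promoter table (GRCm38.p6) held 5 of the 9 members, Cxcl1, Cxcl10, Cxcl12, Ppbp and Cx3cl1. Those not held were Cxcl5, Ccl2, Ccl5 and Ccl7. The 250 bases before the start of Cxcl10, of Cxcl1 and of Cxcl12 are shown because these promoters belong to the members that moved apart from each other in the same pools. Capitals mark matches on either strand to the core of the interferon-stimulated response element, GAAANNGAA, and to the NF-kB site.
Cxcl10, chr5:92348890-92349139, minus strand: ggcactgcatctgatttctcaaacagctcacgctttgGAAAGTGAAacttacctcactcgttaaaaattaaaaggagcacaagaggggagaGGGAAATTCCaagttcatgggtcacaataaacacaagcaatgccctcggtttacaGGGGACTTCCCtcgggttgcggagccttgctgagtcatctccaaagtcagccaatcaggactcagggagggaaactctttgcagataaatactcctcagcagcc
Cxcl1, chr5:90890995-90891244, plus strand: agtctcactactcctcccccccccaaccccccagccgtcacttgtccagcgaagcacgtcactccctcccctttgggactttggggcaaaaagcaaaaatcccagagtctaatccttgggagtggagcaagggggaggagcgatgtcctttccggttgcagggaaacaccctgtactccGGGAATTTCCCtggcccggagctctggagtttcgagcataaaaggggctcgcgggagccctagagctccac
Cxcl12, chr6:117168285-117168534, plus strand: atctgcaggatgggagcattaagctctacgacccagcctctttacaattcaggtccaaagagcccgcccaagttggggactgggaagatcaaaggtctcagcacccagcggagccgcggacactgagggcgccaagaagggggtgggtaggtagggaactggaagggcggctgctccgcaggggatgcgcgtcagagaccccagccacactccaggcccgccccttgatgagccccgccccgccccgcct
The Cxcl10 window held 1 interferon element core, GAAAGTGAA, 213 to 205 bases before the start, an NF-kB match at 159 to 150 bases, and overlapping NF-kB matches at 104 to 94 bases. The Cxcl1 window held overlapping NF-kB matches at 71 to 61 bases. Neither motif was found in the windows of Cxcl12, Cx3cl1 and Ppbp, which says only that these letters are not there. Of 32851 promoter windows, 7.13% held the interferon element core and 7.25% the NF-kB site. A match describes the letters and is not a measured binding site.

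Cxcl10, the interferon-inducible ligand of Cxcr3 on activated T cells, spanned 4.48 between the lowest and highest SV40 group means. The empty vector pool read 8.21, 8.27 and 8.24. The HMGN2 pool read 10.06, 10.51 and 10.22, and the HMGN5 pool read 5.77, 5.75 and 5.85. All HMGN2 arrays lay above and all HMGN5 arrays below every other SV40 array. The rise in HMGN2 was 2.02 ± 0.08 (4.07-fold, limma adjusted p = 1.9e-14) and the HMGN5 difference was -2.45 ± 0.08 (5.47-fold lower, 1.9e-16). The swap pools were a little lower, by -0.41 ± 0.08 and -0.36 ± 0.08. In the HMGN1 pool Cxcl10 read 8.07, 8.10 and 8.23, a difference of -0.11 ± 0.08 that did not pass limma's test (adjusted p = 0.35).

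Interferon genes were raised both where Cxcl10 rose and where it was not called. Irf7, the transcription factor that amplifies interferon responses, read 5.10, 5.05 and 4.78 in the empty vector pool and 9.62, 9.54 and 9.77 in the HMGN1 pool, a rise of 4.66 ± 0.14 (limma adjusted p = 4.2e-16). In HMGN2 the Irf7 rise was 3.41 ± 0.14. Of 18 tested genes of interferon and IRF signalling, 9 rose and none fell in HMGN1 (median 0.25), and 9 rose and 3 fell in HMGN2 (median 0.30), with all-gene medians of 0.00 and -0.06. The shares of all genes called were 29.4% and 44.4%. So the HMGN1 pool had raised Irf7, Irf9 (2.19) and Stat2 (2.34) beside a Cxcl10 level that was not called, and the HMGN2 pool had all 3 raised beside a raised Cxcl10. Cxcl11, a second Cxcr3 ligand, rose in HMGN2 (0.97 ± 0.13) and gave 0.23 ± 0.13 without a call in HMGN1. In HMGN5, where Cxcl10 fell, 6 of the 18 rose and 3 fell, the latter including Irf7 (-1.01) and Irf9 (-1.01). That comparison called 41.5% of all genes.

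RNA sensors that induce Cxcl10 were read beside it. Ifih1, a sensor of long double-stranded RNA, rose in HMGN1 (1.78 ± 0.09) and in HMGN2 (1.82 ± 0.09) and fell by 3.06 in HMGN5, from 7.45, 7.53 and 7.47 in the empty vector pool to 4.59, 4.29 and 4.39. Ddx58, which senses short double-stranded RNA, rose in HMGN1 (2.26) and HMGN2 (1.81) and was -0.29 in HMGN5. Of 15 tested inducing receptors, 8 rose and 1 fell in HMGN1, 7 rose and 1 fell in HMGN2, and 3 rose and 5 fell in HMGN5. The shares of all genes called there were 29.4%, 44.4% and 41.5%. Tlr3, a receptor for double-stranded RNA, rose by 2.49 in HMGN1, and Il1r1, the interleukin-1 receptor, rose by 1.35 in HMGN5. By a rule of highest correlation of group means over the 8 SV40 groups, the genes most like Cxcl10 were Foxc1 (r = 0.99), Paqr8 (0.98) and Decr1 (0.98). The transcription factor gene Foxc1 differed by 0.55 in HMGN2 and -0.79 in HMGN5, smaller differences than those of Cxcl10. These genes were picked for following Cxcl10 over the same groups, so their values describe and do not test.

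**Figure D3:**
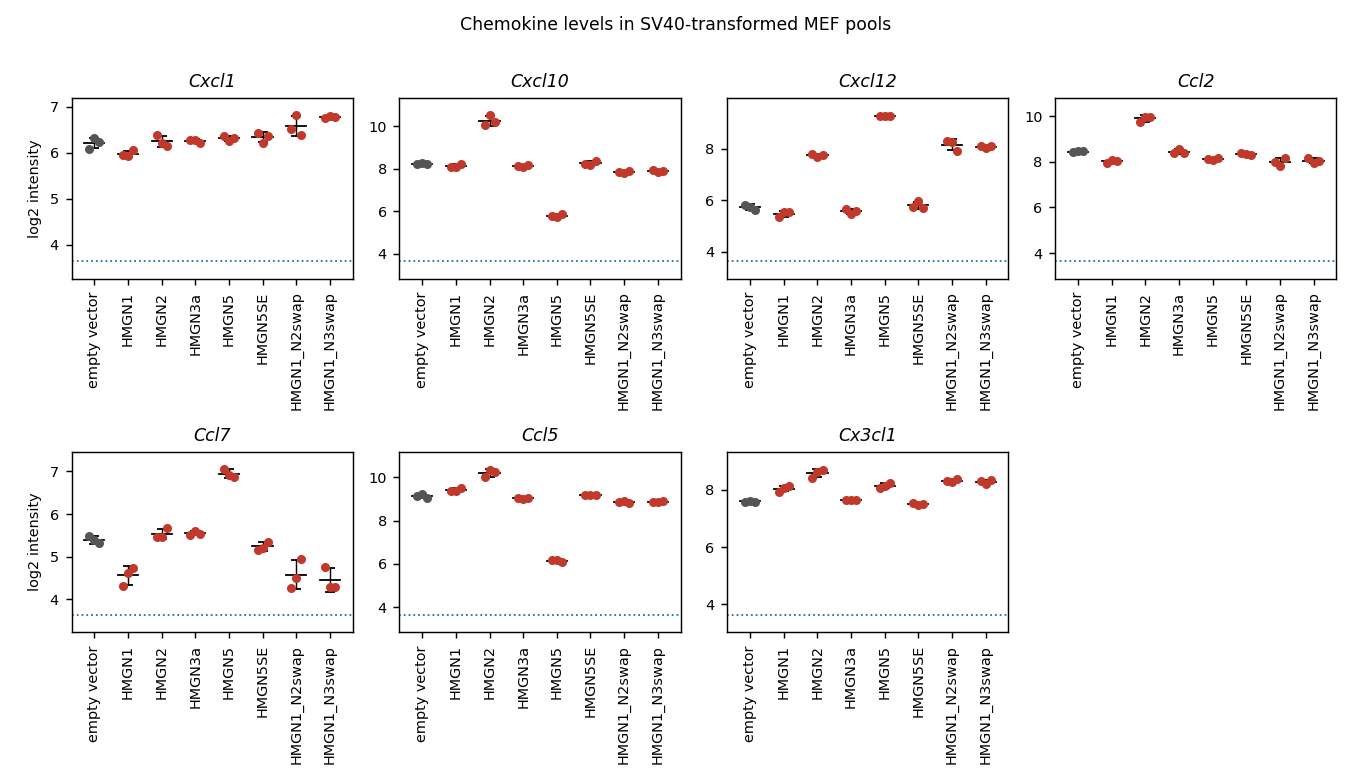
Log2 intensity of the 7 tested members in the 8 groups of SV40 MEFs (grey, empty vector; red, constructs), with a point per array, a bar at the mean and whiskers of 1 SD; the dotted line is the floor at 3.63. HMGN2 is highest for Cxcl10, Ccl2 and Ccl5, and HMGN5 is lowest for Cxcl10 and Ccl5 but highest for Cxcl12 and Ccl7.

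In primary MEFs Cxcl10 read 6.05, 6.06 and 5.99 in the HMGN3 knock out and 4.79, 4.40 and 4.40 in HMGN3 WT, without overlap. The rise was 1.50 ± 0.29 (2.83-fold, limma adjusted p = 0.024). Its call did not survive leaving out any of the 6 arrays, where adjusted p ran from 0.054 to 0.129 and the difference from 1.43 to 1.63. Interferon genes rose with it: Irf7 by 1.19 ± 0.15 and Stat2 by 0.76 ± 0.14, the 2 called of 18 genes of that list, and the sensors Zbp1 (1.00), Ifih1 (0.88) and Ddx58 (0.69), the 3 called of 15. None of either list was called lower, in a comparison that called 0.585% of all genes. The signal summed over the macrophage markers was 10.6 to 11.2 in the knock out and 10.8 to 10.9 in HMGN3 WT, and 0 of 17 tested markers was called by limma. HMGN1 WT read 3.00, 3.19 and 3.45 and lay below HMGN3 WT (difference 1.32 ± 0.29, limma adjusted p = 0.003). The HMGN5 WT arrays were spread widely at 2.74, 4.50 and 3.83, and Cxcl10 there was called against neither WT group. It was called higher than in HMGN1 WT without HMGN5 WT replicate 1 (0.95, limma adjusted p = 0.0041) and lower than in HMGN3 WT without HMGN5 WT replicate 2 (-1.24, limma adjusted p = 0.0028). Over the 6 primary groups the genes most like Cxcl10 were Aida, the antiviral gene Rsad2 and Mocos (r = 0.99 to 1.00). They were picked for following Cxcl10 over these same groups. The Rsad2 difference in the HMGN3 knock out (1.10) is therefore a description and no separate test.

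In MIN6 cells Cxcl10 read 5.21, 5.36 and 5.47 with empty vector, 5.46, 5.35 and 5.47 with HMGN1, and 6.00, 6.14 and 6.18 with HMGN3a. The HMGN3a arrays lay above all others, by 0.76 ± 0.08 over empty vector (1.69-fold, limma adjusted p = 4.8e-05). In the same comparison Irf9 rose by 0.50 ± 0.09 and Sting1, an adaptor of DNA sensing, by 0.40 ± 0.07, while Ifngr1, the interferon-gamma receptor, fell by 0.65. Of 18 interferon and IRF genes 3 rose and 6 fell, with 34.1% of all genes called.

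Cxcl12, the stromal ligand of Cxcr4 and Ackr3, had the largest rise of any member. It read 5.83, 5.75 and 5.61 in the SV40 empty vector pool and 9.27, 9.24 and 9.28 in the HMGN5 pool. The HMGN2 pool read 7.79, 7.67 and 7.74, HMGN1_N2swap 8.30, 8.24 and 7.89, and HMGN1_N3swap 8.08, 8.03 and 8.10. These 4 pools lay above every array of the other 4 groups, and only the 2 swap pools overlapped each other. The rises were 3.53 ± 0.09 in HMGN5 (11.6-fold, limma adjusted p = 2.5e-18), 2.41 ± 0.09 and 2.34 ± 0.09 in the swaps, and 2.00 ± 0.09 in HMGN2. HMGN1, the parent name of the swaps, gave -0.26 ± 0.09 (limma adjusted p = 0.039), a call lost without replicate 1 or 2 of either group (-0.28 to -0.19) and with no filter on dim probe sets (limma adjusted p = 0.055). The swaps and HMGN1 were not tested against each other.

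The other well-lit Cxcl12 probe set, 1417574_at, rose in the same 4 pools, by 4.83 ± 0.18 in HMGN5, 2.47 ± 0.18 in HMGN2, and 2.23 ± 0.18 and 2.05 ± 0.18 in the swaps. HMGN2 thus lay above the swaps by this probe set and below them by the brighter one. The dim 1439084_at gave none of them (0.13 ± 0.10 in HMGN5). Ackr3, a receptor that scavenges Cxcl12, passed the floor only through the 4 pools where it is high, so its differences are given as a description without a test. It read 2.94, 3.33 and 2.88 with empty vector, below the floor, and 6.62, 6.59 and 6.48 with HMGN5. The Ackr3 difference in HMGN5 was therefore at least 2.93. Against the same dim control Ackr3 was higher by at least 1.30 in HMGN2, 2.04 in HMGN1_N2swap and 1.86 in HMGN1_N3swap. Cxcr4, the signalling receptor, was below the floor in all 8 groups. By likeness of group means over the 8 groups, the 3 genes nearest to Cxcl12 were the proteoglycan gene Bgn (r = 1.00), the adhesion gene Ncam1 (0.99) and Ackr3 (0.99), the latter with 4 group means below the floor.

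**Figure D4:**
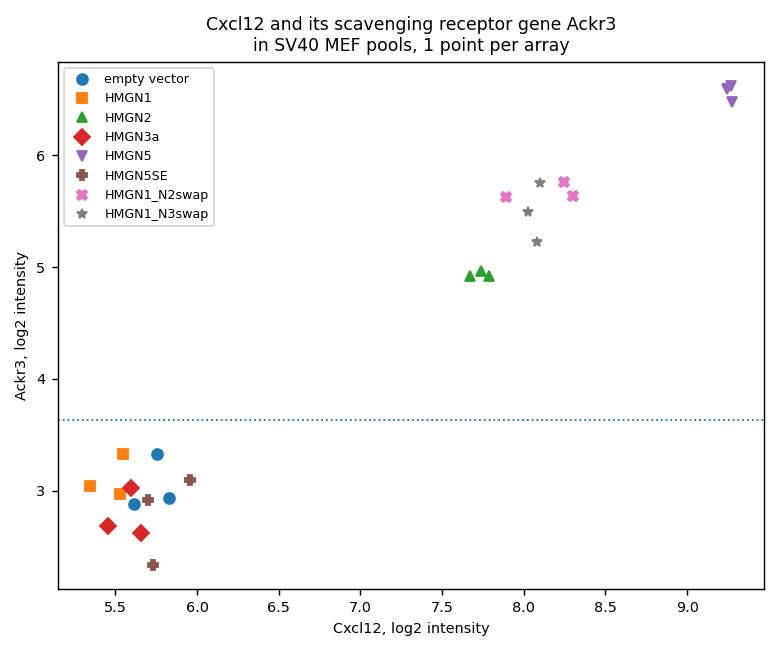
Log2 intensity of Ackr3 against Cxcl12 on the 24 arrays of SV40 MEFs, with a symbol per group; the dotted line is the floor at 3.63. The empty vector, HMGN1, HMGN3a and HMGN5SE arrays sit together below the floor of Ackr3, and the HMGN2, swap and HMGN5 arrays sit apart at higher values of both.

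Some fibroblast marker genes rose in the same pools. Of 9 tested fibroblast markers 7 rose in HMGN2 and none fell (median 1.57), 6 rose and Thy1 fell in HMGN5 (median 1.69), and 4 rose in each swap pool (medians 0.22 and 0.23). These counts are to be read against 44.4%, 41.5%, 37.1% and 37.4% of all genes called, in the same order. The collagen gene Col3a1 rose by 4.16 in HMGN5 and 2.99 in HMGN2. The log2 summed marker intensity was 13.0 to 13.1 in the empty vector pool, 14.0 to 14.1 in HMGN2, 14.2 to 14.3 in HMGN5 and 13.3 to 13.5 in both swap pools. Its part in the Cxcl12 differences was not tested. In primary MEFs Cxcl12 read 9.11, 9.21 and 9.19 in HMGN5 WT, above 8.04, 7.85 and 7.93 in HMGN1 WT and 7.88, 7.87 and 7.83 in HMGN3 WT. HMGN5 WT was higher by 1.23 ± 0.14 and 1.31 ± 0.14 (limma adjusted p = 3.5e-05 and 1.2e-05). No knock out comparison called Cxcl12, and summed fibroblast markers ran from 14.5 to 14.7 over all primary arrays. In MIN6 cells HMGN3a gave -0.30 ± 0.09 (limma adjusted p = 0.024), which passed with all MIN6 groups fitted together and not with the compared groups alone (0.0502) or without empty vector replicate 1 or 2 or HMGN3a replicate 3.

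Ccl2 and Ccl7 both draw monocytes through Ccr2, and their genes are neighbours on chromosome 11 with no protein-coding gene between them. They did not move together in the SV40 pools. Ccl2 read 8.41, 8.47 and 8.45 with empty vector and 9.74, 9.97 and 9.98 with HMGN2, a rise of 1.45 ± 0.08 (2.74-fold, limma adjusted p = 3.9e-12). Ccl7 read 5.49, 5.38 and 5.32 with empty vector and 5.46, 5.46 and 5.67 with HMGN2, overlapping ranges and no call (0.14 ± 0.14). With HMGN5, Ccl7 read 7.06, 6.92 and 6.86, above every other SV40 array, and rose by 1.55 ± 0.14 (limma adjusted p = 5.4e-09). Ccl2 in the HMGN5 pool was lower instead, at 8.10, 8.08 and 8.15 (-0.34 ± 0.08, limma adjusted p = 0.0018). Thus in HMGN5 the neighbouring genes were called in opposite directions.

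In HMGN1 and the swap pools both monocyte attractants were lower. Ccl7 differed by -0.84 ± 0.14, -0.82 ± 0.14 and -0.95 ± 0.14, and Ccl2 by -0.43, -0.44 and -0.40 with an SE of 0.08. The Ccl7 levels of the 3 pools overlapped each other, at group means of 4.45 to 4.57. The swap arrays also had the largest gap between the 3-prime and 5-prime Actb control probe sets, a sign of RNA integrity, at 0.39 to 0.79 against 0.23 to 0.29 with empty vector. With that gap as a covariate Ccl7 in HMGN1_N2swap was -0.39 (limma adjusted p = 0.078), and Ccl2 was -0.24 and -0.22 in the swaps (0.086 and 0.10), all without a call. The swap calls dropped to 3 of 7 members in HMGN1_N2swap and 4 of 7 in HMGN1_N3swap. Cxcl12 (2.23 and 2.17) and Cx3cl1 (0.80 and 0.76) kept theirs in both pools. Cxcl10 kept its call in HMGN1_N2swap, and Ccl7 and Cxcl1 in HMGN1_N3swap.

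In primary MEFs Ccl2 read 7.38, 7.25 and 7.25 in HMGN3 WT and 6.65, 6.15 and 6.36 in HMGN1 WT, without overlap, and differed by 0.91 ± 0.16 (limma adjusted p = 0.00055). Ccl7 differed in the same contrast by 0.98 ± 0.20 (limma adjusted p = 0.0021). HMGN5 WT was below HMGN3 WT for Ccl2 (-0.53 ± 0.16, limma adjusted p = 0.029) and Ccl7 (-0.67 ± 0.20, limma adjusted p = 0.035). Neither was called in a knock out comparison, where Ccl2 differences lay between -0.02 and 0.23. Tlr13, a receptor for bacterial RNA, was among the 3 genes most like Ccl2 over the 6 primary groups (r = 0.99), after the epithelial gene Upk1b and the protease inhibitor gene Reck.

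**Figure D5:**
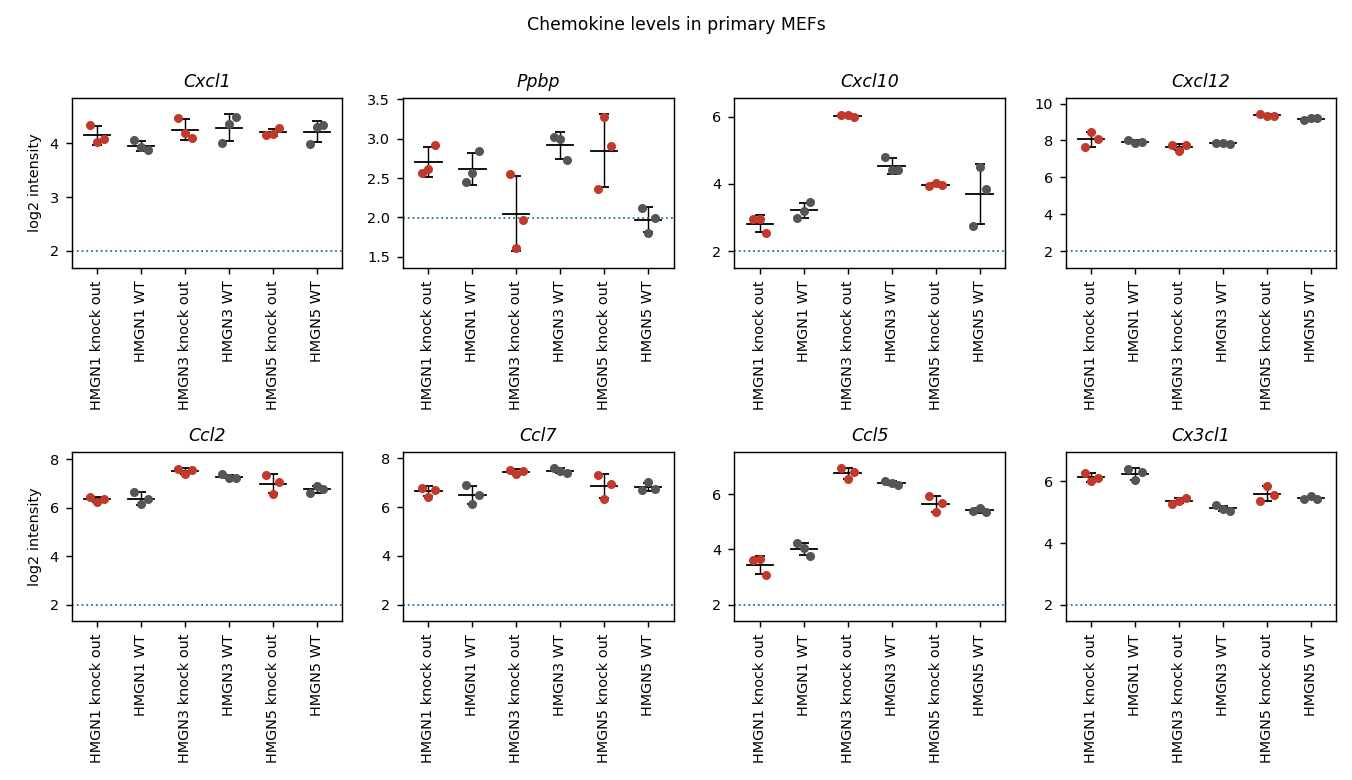
Log2 intensity of the 8 tested members in the 6 primary MEF groups (grey, WT; red, knock out), with a point per array, a bar at the mean and whiskers of 1 SD; the dotted line is the floor at 1.99. Ccl5, Cxcl10, Ccl2 and Ccl7 are lower in HMGN1 WT than in HMGN3 WT, Cx3cl1 is higher there, and Ppbp sits near the floor.

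Ccl5, an attractant of T cells and monocytes, showed the largest fall. It read 9.12, 9.25 and 9.06 in the SV40 empty vector pool and 6.20, 6.17 and 6.07 in the HMGN5 pool. No HMGN5 array came near another SV40 array, and the difference was -3.00 ± 0.07 (7.98-fold lower, limma adjusted p = 7.5e-19). With HMGN2 it read 10.01, 10.36 and 10.25, above all other arrays, a rise of 1.07 ± 0.07. Ccl5 was slightly higher in the HMGN1 pool (0.28 ± 0.07, limma adjusted p = 0.0057) and slightly lower in the swap pools, by -0.30 ± 0.07 and -0.26 ± 0.07. These small differences passed the test with ranges that did not overlap the control, and in the swaps they lost the call with the Actb gap as a covariate. The swap differences themselves moved little then, to -0.28 and -0.24 (limma adjusted p = 0.054 and 0.077). In HMGN1_N3swap the Ccl5 call was also lost without empty vector replicate 2 (-0.20, limma adjusted p = 0.056). Sdc4, a heparan sulfate proteoglycan that binds chemokines at the cell surface, was among the 3 genes most like Ccl5 over the 8 SV40 groups (r = 0.99), with Usp6nl and H2ax. Sdc4 fell by 2.65 in HMGN5, from 10.29, 10.26 and 10.23 to 7.72, 7.53 and 7.59, and rose by 0.86 ± 0.10 in HMGN2. It was picked for following Ccl5 over these groups, so its values describe and do not test.

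NF-kB genes were read beside Ccl5 and Cxcl10 in the HMGN5 pool. Of 18 tested genes of NF-kB signalling 7 rose and 3 fell (median 0.12), with Bcl3, a nuclear partner of NF-kB p50, at -1.24 ± 0.10 and the inhibitor gene Nfkbie at 0.63 ± 0.10. Of 13 other NF-kB targets 2 rose and 6 fell (median -0.24), with Birc3 at -1.39 ± 0.08 among the falls and Ptgs2, the inducible prostaglandin synthase, at 1.44 among the rises. In HMGN2, 6 of these targets rose and 3 fell (median 0.08), led by the interferon-inducible Gbp2 (2.49 ± 0.11). The all-gene medians were -0.01 in HMGN5 and -0.06 in HMGN2, with 41.5% and 44.4% of all genes called. Of 18 macrophage and leukocyte markers 7 or 8 were above the floor in each SV40 group, among them Csf1r, Lyz2 and Laptm5 in all, while Ptprc, Adgre1, Itgam, C1qa and Aif1 were below it in all. Their summed log2 signal ran from 8.15 to 8.41 over all arrays, from 8.23 to 8.27 with empty vector and from 8.32 to 8.36 in HMGN5, and its part in the results was not tested.

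In primary MEFs Ccl5 separated the WT groups completely, at 6.46, 6.42 and 6.33 in HMGN3 WT, 5.38, 5.51 and 5.36 in HMGN5 WT and 4.22, 4.06 and 3.78 in HMGN1 WT. HMGN3 WT was 2.38 ± 0.16 above HMGN1 WT (5.22-fold, limma adjusted p = 5.7e-08) and HMGN5 WT was 1.40 ± 0.16 above it (limma adjusted p = 4.1e-05). The HMGN1 knock out read 3.63, 3.64 and 3.07, below all arrays of its WT group, but -0.57 ± 0.16 did not pass limma's test (adjusted p = 0.11). Over the 6 primary groups the genes most like Ccl5 by group means were Ctss, a lysosomal protease of macrophages (r = 1.00), Srxn1 and the lysozyme gene Lyz1 (1.00). Having been picked on these groups, their values describe and do not test. Ctss itself was called in no WT contrast by limma (adjusted p = 0.083, 0.42 and 0.56), and Lyz1 was called in HMGN3 WT against HMGN1 WT (1.15 ± 0.34) and in neither other. In that contrast, which called 31.5% of all genes, 6 of 17 tested macrophage and leukocyte markers rose and none fell (median 1.13, all genes -0.03), among them Cd68 (1.75), Adgre1 (1.50) and Ptprc (1.43). Summed over the list, the log2 signal was 9.63 to 9.71 in HMGN1 WT, 10.8 to 10.9 in HMGN3 WT and 9.71 to 10.6 in HMGN5 WT.

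That signal was 9.18 to 9.60 in the HMGN1 knock out and 9.02 to 11.4 in the arrays labelled HMGN5 knock out. Within the latter arrays Ctss read 8.20, 5.62 and 7.50 while Ccl5 read 5.93, 5.37 and 5.67. The part of macrophages in the WT differences of Ccl5, Ccl2, Ccl7 and Cxcl10 was not tested, and in these bulk samples fewer cells of a type and less RNA per cell cannot be told apart. With Y-linked RNA as a covariate the difference of HMGN3 WT from HMGN1 WT was 2.74 for Ccl5, 1.16 for Ccl2 and 1.22 for Ccl7, all still called, and 1.35 for Cxcl10 (limma adjusted p = 0.061). Y-linked RNA was near background in every HMGN1 WT array and high in every HMGN3 WT array, so it cannot be told apart from this contrast. The covariate's slope came mostly from the HMGN1 knock out and the arrays labelled HMGN5 knock out, which makes the adjusted values an extrapolation.

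Of 20 tested chemokines outside the 9 members 6 rose and 1 fell in HMGN3 WT against HMGN1 WT (median 0.14, all genes -0.03), a share near the 31.5% of all genes called there. Cxcl14, a chemokine of epithelia and stroma, read 6.45, 6.49 and 6.23 in HMGN3 WT and 4.03, 2.57 and 3.24 in HMGN1 WT (3.11 ± 0.28, limma adjusted p = 1.2e-06). The monocyte attractant Ccl8 rose by 1.27 ± 0.21, and Ccl17, a Ccr4 ligand, fell by 1.04. Of 15 tested NF-kB targets outside the chemokines 10 rose and none fell (median 0.51), among them Mmp3 (2.25 ± 0.23) and Il6 (1.13 ± 0.19), while the feedback inhibitor Tnfaip3 of the signalling list was -0.89 ± 0.16. Irf7 was higher by 1.77 ± 0.15.

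Cx3cl1, the membrane-anchored ligand of Cx3cr1, went the other way in the primary WT groups. It read 5.22, 5.11 and 5.05 in HMGN3 WT and 6.41, 6.04 and 6.29 in HMGN1 WT, without overlap (-1.12 ± 0.11, limma adjusted p = 4.0e-06). The probe set 1415804_at gave a smaller fall there (-0.30 ± 0.10), and 1421610_at gave -0.17 without a call. HMGN5 WT was also below HMGN1 WT (-0.79 ± 0.11, limma adjusted p = 0.00029). No knock out comparison called it. In the SV40 pools it was called in 5 of 7 comparisons and in each as higher. The empty vector pool read 7.59, 7.61 and 7.59, and the HMGN2 pool 8.43, 8.64 and 8.69, above every other array (0.99 ± 0.07). The rises were 0.72 ± 0.07 and 0.69 ± 0.07 in the swaps, 0.55 ± 0.07 in HMGN5 and 0.45 ± 0.07 in HMGN1, and these 4 pools overlapped their neighbours in that order. Of its other probe sets, 1415804_at was called among the SV40 pools in HMGN2 (0.92 ± 0.16) and gave, without a call, 0.10, 0.20, 0.03 and 0.17 in HMGN1, HMGN5 and the swaps. The dim 1421610_at was also called in HMGN2 (0.50 ± 0.13) and gave 0.27, 0.19, 0.19 and 0.32 in HMGN1, HMGN5 and the swaps without a call, and 0.25 and 0.20 in HMGN3a and HMGN5SE, from an empty vector mean below the floor. Outside HMGN2 the calls thus came from 1415803_at. Of 10 tested genes of chemokine processing and surface binding 4 rose and 1 fell in HMGN5, and 3 rose and none fell in HMGN2. These comparisons called 41.5% and 44.4% of all genes, so the counts set this list little apart.

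Among the SV40 pools HMGN3a and HMGN5SE gave the narrowest values. The Hmgn3 probe set had not shown the HMGN3a construct there. Over the 7 tested members the HMGN3a differences lay between -0.16 and 0.15 and the HMGN5SE differences between -0.15 and 0.12, with an SE of 0.07 to 0.14, and none passed limma's test. HMGN5, whose name HMGN5SE extends, differed from the same empty vector arrays by up to 3.53. HMGN5 and HMGN5SE were not tested against each other. In MIN6 cells the HMGN1 differences of Cx3cl1, Cxcl1 (by 1441855_x_at), Cxcl10 and Cxcl12 lay between -0.07 and 0.17. For Ccl5, with the empty vector mean below the floor, the difference was at least 0.05.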

How the data were processed

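RNA of 51 mouse samples was measured on Affymetrix whole-genome arrays. The authors deposited linear intensities, 1 per probe set. The submitters' processing notes name RMA; its version and settings are not given in the sources used here. All value columns were used (0 unused). From the deposited intensities log2 values were taken, with no further normalization. RMA values of different cell types had different distributions, so each cell type was fitted apart. Of 45101 probe sets, 34945 carried 1 gene in the platform annotation, 932 several, 9160 none and 64 were array controls; 34741 matched RefSeq by gene ID.

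A probe set was kept where at least 1 group mean reached percentile 40 of the means over all groups within a cell type. Each gene was represented by the brightest of its kept probe sets, which left 13669 genes for primary MEFs, 13461 for the SV40 line and 13169 for MIN6. limma 3.58.1 (R 4.3.3) fitted a mean per group without covariate, and p-values, two-sided, were adjusted over all genes of a comparison by the Benjamini-Hochberg method, with calls at an adjusted p below 0.05. Values of single probe sets come from a fit of every probe set. A difference with 1 group below the floor is given as a bound from the floor. There were 12 comparisons with controls, 3 among WT groups and 3 between knock out effects. In simulated data, 200 genes were given known changes, and for HMGN1 against empty vector in SV40 MEFs (13461 genes) it recovered 94.0% of genes changed 1.5-fold, with 7.55% false calls; the same shares were 88.1% and 7.35% for the HMGN1 knock out (13669 genes) and 86.6% and 5.45% for HMGN1 in MIN6 cells (13169 genes).

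The members and lists were chosen with earlier results of these data known. The rule names the 9 members, up to 4 called genes of each pathway list with the largest difference in a cell type, and the 3 genes most like a member spanning over 1 on the log2 scale; marker genes, Cxcr4, and further list genes set beside a member (Ddx58, Ifih1, Irf7, Irf9, Stat2, Zbp1, Ptgs2 and Cxcl11 in single comparisons) were named after their values were seen. Replicate numbers recur across groups, but in no comparison did the deviations of all same-numbered pairs correlate above 0.1 (range -0.34 to 0.38), so arrays were not paired. Alternatives were no filter, every probe set, quantile normalization, only the compared groups, a replicate block, Y-linked RNA or the Actb gap as a covariate, and each array left out. Python 3.11.15, pandas 2.3.3, numpy 2.4.6 and matplotlib 3.10.9 were used.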

Additional observations from a re-analysis of the deposited data

Results flagged for a closer look

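The knock out effect on Ppbp differed between the HMGN3 pair and the pair labelled HMGN5, by -1.75 on the log2 scale in a test of the difference itself (limma adjusted p = 0.026), with its values close to the floor.

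The mean Cxcl10 difference had opposite signs with the same construct in the 2 lines. With each construct all 3 arrays lay below the empty vector mean in SV40 MEFs and above it in MIN6 cells. The HMGN1 arrays nevertheless overlapped the empty vector arrays in both lines. With HMGN1 the mean difference from empty vector was -0.11 in SV40 MEFs and 0.078 in MIN6 cells, each with an SE of 0.08. With HMGN3a it was -0.10 in SV40 MEFs and 0.76 in MIN6 cells. The difference between the lines was not tested, and 3 of these 4 values did not pass limma's test within their line.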

How the results depend on the processing

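Over the 15 comparisons, called member differences had 550 values under the alternatives, of which 515 kept direction and call, 35 kept the direction and lost the call, and 0 reversed. Members called in the HMGN3 knock out ranged from 0 to 1 when an array was left out, in HMGN5 WT against HMGN3 WT from 3 to 6, and in MIN6 HMGN3a from 1 to 2. The latter was 1 with only the compared groups. With the Actb gap as a covariate 3 members were called in HMGN1_N2swap and 4 in HMGN1_N3swap. The HMGN1 and HMGN3 knock out effects differed in 1 member, Cxcl10, under quantile normalization, and the HMGN3 and HMGN5 effects in 0 to 2 when an array was left out. The replicate block changed no call: the HMGN2 pool kept 5 members called, the HMGN5 pool 6 and the HMGN3 knock out 1. Cxcl5, Ppbp outside primary MEFs, and Ccl2 and Ccl7 in MIN6 cells were too dim to compare, and 3 arrays a group limit small differences. Cxcl1 by 1419209_at was also too dim to compare in MIN6 cells.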
